A study of Homo sapiens with 11 samples.

Results

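A set of 10 genes that FOXO transcription factors are known to control during growth arrest and cell death were followed through all arrays of the series: CCNG2, GADD45A, BCL6, BCL2L11, FBXO32, KLF15, CITED2, DEPP1, BNIP3 and RRAGD. Every probe set that the platform annotation assigns to 1 of these symbols alone was taken, which gave 34 probe sets for 10 genes, of 54675 probe sets in all. BCL2L11 and FBXO32 have 7 probe sets each, CCNG2 5, BCL6 and CITED2 3 each, KLF15, DEPP1, BNIP3 and RRAGD 2 each and GADD45A 1. A probe set is a group of short probes for 1 transcript region, and its level depends on its own probes, so every difference given is between arrays at 1 probe set. Unless another choice is named, where 1 probe set had to stand for a gene the leading one was taken. It has the highest mean over the 11 arrays, which says nothing of RNA amounts between probe sets. Of the 34 probe sets, 25 came to the 60th percentile or higher on 1 array or more. The other 9 (5 of FBXO32, 2 of BCL2L11, 1 of CCNG2 and 1 of CITED2) stayed below it everywhere.

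RNA came from A673sh, an Ewing sarcoma cell line with an integrated short hairpin RNA (shRNA) against the EWS-FLI1 fusion that doxycycline switches on. All 11 arrays were made from transiently transfected cells, and neither the labels nor the methods give the share of cells that took up the plasmid. The shRNA groups carried a pRS plasmid with a scrambled hairpin (sh-scrambled) or a hairpin against endogenous FOXO1 (sh-FOXO1), each in a pair of groups that received no doxycycline or 1 µg/ml of it during the 48 h after transfection, with 2 arrays a group. The plasmid groups had 1 array each, no doxycycline in their labels and a pCDNA3 vector that was empty, coded for Flag-tagged FOXO1 with T24A, S256A and S319A (AKT-resistant FOXO1) or for Flag-tagged FOXO1 with S249A and S298A (CDK2-resistant FOXO1). The labels do not say whether 2 arrays of a group came from separate cultures, and p-values therefore cover the spread of these arrays alone, part or all of which may be technical. On bulk RNA, fewer expressing cells and less RNA per cell cannot be told apart. No cells without the inducible hairpin received doxycycline, so EWS-FLI1 knockdown and effects of the drug itself cannot be told apart. FOXO1 silencing was compared only with the scrambled hairpin, and the labels do not say which FOXO1 hairpin was used. Loss of FOXO1 and other effects of that plasmid cannot be told apart either.

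FOXO proteins are forkhead transcription factors that act downstream of insulin and growth factor signalling. AKT phosphorylates them when the pathway is active, which moves them out of the nucleus, and CDK2 can phosphorylate FOXO1 at other serines. Nuclear FOXO proteins bind DNA elements around the sequence GTAAACA and switch on genes that slow the cell cycle (CCNG2, GADD45A), repress transcription (BCL6), start apoptosis (BCL2L11), degrade muscle proteins (FBXO32) or adjust metabolism, autophagy and mitochondria (KLF15, DEPP1, BNIP3, RRAGD). In Ewing sarcoma the EWS-FLI1 fusion is an aberrant ETS factor, and the question behind the arrays was how much of the gene repression linked to it passes through FOXO1.

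The perturbations were visible in the targeted genes. FLI1, whose C-terminal part lies in the fusion, fell by 1.85 on the log2 scale with doxycycline in sh-scrambled cells (204236_at, standard error 0.10, adjusted p = 1.3e-06) and by 1.49 in sh-FOXO1 cells. FOXO1 averaged 5.83 in sh-scrambled cells and 7.19 with doxycycline, against 4.89 and 5.75 in sh-FOXO1 cells (202723_s_at). At 202724_s_at FOXO1 rose by 1.85 with doxycycline and fell by 1.51 with sh-FOXO1, each in both backgrounds, and 228484_s_at did not move by more than 0.08 in any of these comparisons. On the single plasmid arrays, FOXO1 read 5.84 with empty vector, 8.30 with AKT-resistant and 7.06 with CDK2-resistant FOXO1 at 202723_s_at, and 3.97, 8.84 and 8.11 at 228484_s_at. At 202724_s_at they were 5.88, 5.71 and 5.61, so this FOXO1 probe set showed neither mutant above empty vector. All 6 Ewing sarcoma markers were above the array median on all 11 arrays, and their mean fell from 10.4 to 8.70 with doxycycline in sh-scrambled cells. Of the markers of other cells, EPCAM, KRT19, CDH1, PTPRC, CD14 and CDH5 were below the array median on all 11 arrays and KRT8, KRT18, HBB, PECAM1, VWF and TEK above it. The mean of 5 endothelial markers was 5.06 in sh-scrambled cells, 5.52 with doxycycline, 5.45 in sh-FOXO1 cells and 5.87 with doxycycline, and of the 5 only KDR was called in these comparisons. The part of these markers in the results below was not tested.

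The promoters were searched for letters that FOXO and ETS factors are known to prefer. RefSeq promoters (GRCh38.p14) were found for 7 of the 10 genes, with 10 start sites in all, namely CCNG2, BCL6, BCL2L11, KLF15, CITED2, DEPP1 and BNIP3. GADD45A, FBXO32 and RRAGD were not matched. In the 250 bases before each start, the FOXO core GTAAACA on either strand was found for BCL2L11 and for DEPP1 and at none of the other 8 starts, and 2.98% of 35116 promoters hold it. The insulin response element core CAAAACA (4.3% of promoters), the ETS core CCGGAAG (8.52%) and GGAA in tandem (3.06%) were found at none of the 10 starts, with both strands searched and no overlap between the motifs counted. Both matches are shown because these are the sequences the FOXO1 mutants would meet near the start, with GTAAACA in capitals. It begins 223 bases before the start of BCL2L11 (chr2:111120664-111120913, plus strand) and 180 bases before that of DEPP1 (chr10:44978810-44979059, minus strand), in both cases in the direction of the gene. A match is a description of the letters and does not show binding.
BCL2L11: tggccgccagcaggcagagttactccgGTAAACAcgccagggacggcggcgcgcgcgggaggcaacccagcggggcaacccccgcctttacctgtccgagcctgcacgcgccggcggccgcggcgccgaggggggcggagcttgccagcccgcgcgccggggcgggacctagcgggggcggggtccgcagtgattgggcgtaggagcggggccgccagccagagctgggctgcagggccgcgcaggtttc
DEPP1: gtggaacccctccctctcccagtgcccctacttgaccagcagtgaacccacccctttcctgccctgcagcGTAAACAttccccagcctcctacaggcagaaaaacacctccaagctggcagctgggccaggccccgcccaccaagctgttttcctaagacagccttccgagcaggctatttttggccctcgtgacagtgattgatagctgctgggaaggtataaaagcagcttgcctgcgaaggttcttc

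**Figure D1:**
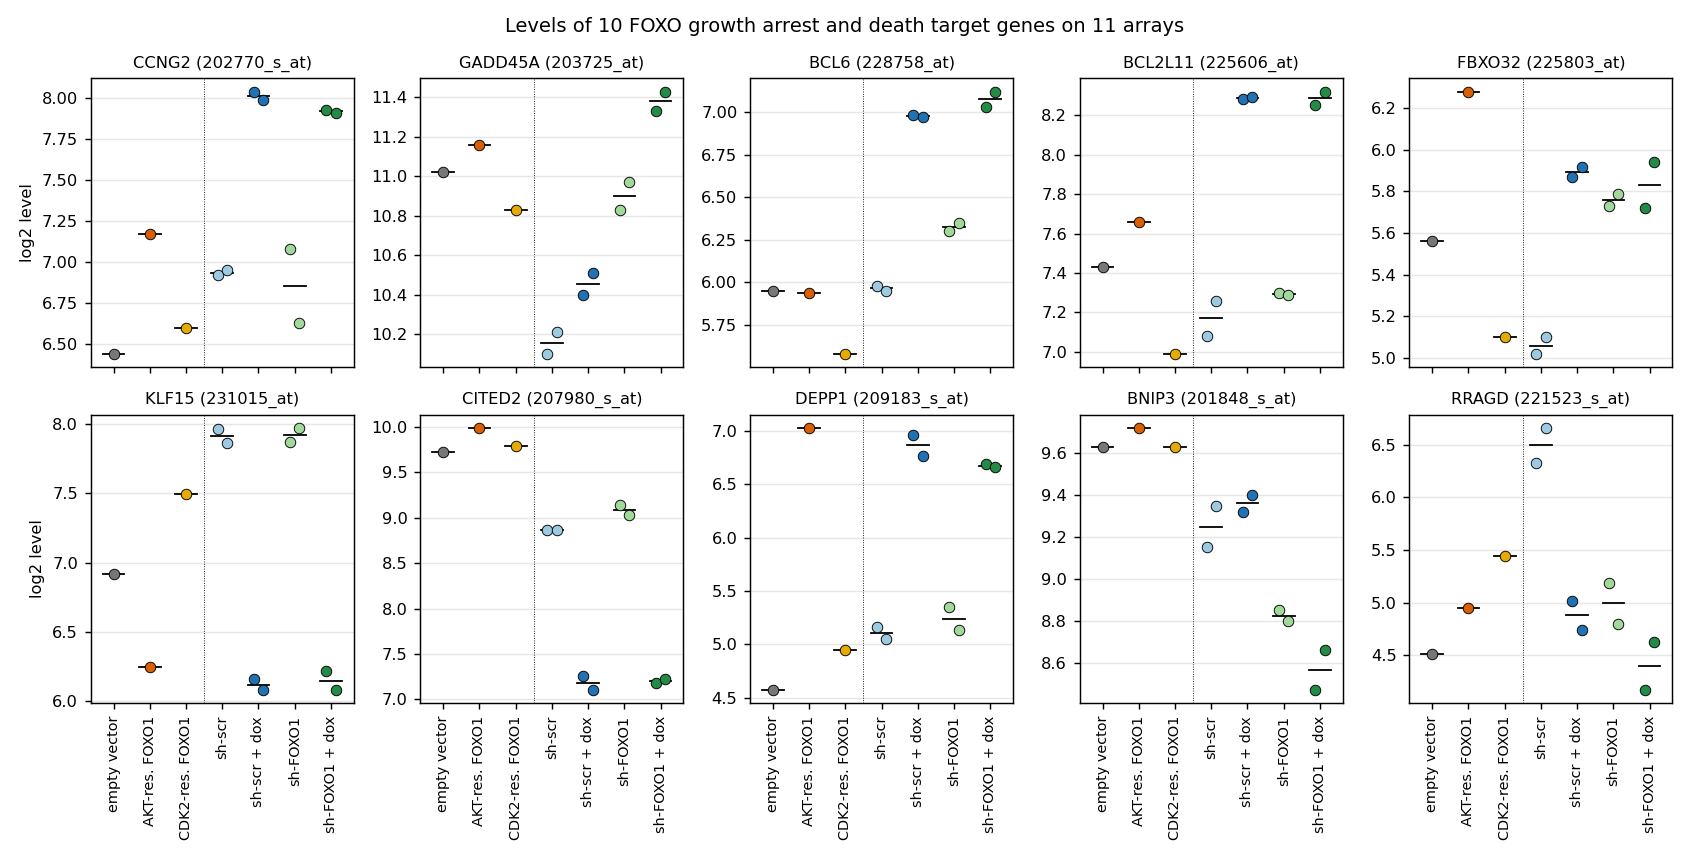
Log2 levels (y axis) of the probe set with the largest interquartile range of each of the 10 genes on all 11 arrays, by group (x axis; sh-scr is sh-scrambled, dox is doxycycline). Points are arrays, black bars are group means and the dotted line parts plasmid from shRNA arrays; the KLF15 and CITED2 probe sets shown drop with doxycycline in both shRNA backgrounds, and DEPP1 is at 7.03 with AKT-resistant FOXO1 against 4.57 with empty vector.

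EWS-FLI1 knockdown split the genes by direction. Comparing sh-scrambled cells with and without doxycycline (2 arrays against 2), 8 of 34 probe sets of CCNG2, BCL6, BCL2L11 and DEPP1 rose, where 3.56% of all 54675 probe sets did, and 5 of KLF15, CITED2 and RRAGD fell, where 2.81% did. Rising and falling here mean an adjusted p under 0.05 (limma) and a log2 fold change past 1. The median of the 34 probe sets was 0.20, against −0.02 over all probe sets. With 1 probe set per gene, that with the largest interquartile range over these arrays, all 10 genes were kept among 12326. Of these 10, 4 rose and 3 fell, where 8.1% and 7.49% of genes did. That choice favours probe sets that vary. By the leading probe set 2 rose and 3 fell, where 4.53% and 4.02% of 19775 genes did. BCL2L11 (0.09) and DEPP1 (0.39) were not called there. GADD45A, FBXO32 and BNIP3 were not called at any probe set.

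The growth arrest genes differed from each other. CCNG2, an unconventional cyclin that restrains cell division, read 8.25 and 8.43 in sh-scrambled cells and 9.40 and 9.50 with doxycycline (202769_at). The difference was 1.11 on the log2 scale (standard error 0.09, limma adjusted p = 1.4e-05). The CCNG2 probe sets 202770_s_at and 211559_s_at gave 1.08 and 1.04, 228081_at gave 0.71 (adjusted p = 0.00015, short of the limit) and 1555056_at, below the 60th percentile throughout, −0.12. GADD45A, a stress sensor that halts the cell cycle after DNA damage, read 10.10 and 10.21 without doxycycline and 10.40 and 10.51 with it. This difference was 0.30 (standard error 0.08, limma adjusted p = 0.024), far from the limit of 1.

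The transcriptional regulators went both ways. BCL6, a zinc finger repressor, read 7.83 and 8.13 without and 9.03 and 9.10 with doxycycline (203140_at, log2 fold change 1.08, standard error 0.10, adjusted p = 4.2e-05). Its probe set 228758_at rose by 1.01 and 215990_s_at differed by 0.81, so all 3 BCL6 probe sets pointed up. KLF15, a Krüppel-like factor of glucose and amino acid metabolism, read 7.96 and 7.86 without and 6.16 and 6.08 with doxycycline (231015_at). That fall of 1.79 (standard error 0.08, adjusted p = 4.5e-07) was the largest among the 34 probe sets, while the second KLF15 probe set 221302_at gave −0.24 (adjusted p = 0.12). CITED2, a CBP/p300 partner that restrains hypoxia-inducible factors, read 10.09 and 9.96 without and 8.31 and 8.22 with doxycycline (209357_at). CITED2 fell by 1.76 (standard error 0.10, adjusted p = 1.8e-06) at this probe set and by 1.68 at 207980_s_at, and 227287_at, below the 60th percentile throughout, gave 0.17.

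Among the death genes, BCL2L11, which encodes the BH3-only protein BIM, depended on the probe set. The probe set 225606_at read 7.08 and 7.26 without and 8.28 and 8.29 with doxycycline (log2 fold change 1.12 ± 0.08, adjusted p = 5.9e-06), and 1555372_at rose by 1.05. The leading BCL2L11 probe set, 1553096_s_at, read 7.53 and 7.50 without and 7.65 and 7.57 with doxycycline (log2 fold change 0.09, adjusted p = 0.34), and 1558143_a_at gave 0.54. Across the 11 arrays 225606_at followed 1555372_at (Pearson r = 0.93) but not 1553096_s_at (r = −0.05), so the 7 probe sets do not report 1 common BCL2L11 level. BNIP3, a mitochondrial protein of mitophagy and cell death, stood at 9.15 and 9.35 without and 9.32 and 9.40 with doxycycline (201848_s_at), and these groups overlapped. Its log2 fold changes were 0.11 and 0.06 (standard errors 0.09 and 0.09).

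FBXO32, the muscle ubiquitin ligase subunit atrogin-1, read 5.02 and 5.10 without and 5.87 and 5.92 with doxycycline at its leading probe set 225803_at. The difference of 0.84 (standard error 0.09, adjusted p = 7.7e-05) passed the p threshold but not the limit of 1, as did 0.63 at 225328_at (adjusted p = 0.0019). DEPP1, a FOXO-responsive regulator of autophagy, rose more than any other of the 34 probe sets, from 5.16 and 5.05 to 6.96 and 6.77 at 209183_s_at (log2 fold change 1.76, standard error 0.10, adjusted p = 1.6e-06). The other DEPP1 probe set, 209182_s_at, differed by 0.39 (adjusted p = 0.0045), and both DEPP1 probe sets varied together over the arrays (r = 0.87). RRAGD, a Rag GTPase that brings mTORC1 to the lysosome, fell from 9.21 and 9.39 to 8.17 and 8.26 at 221524_s_at (log2 fold change −1.08, standard error 0.09, adjusted p = 2.8e-05). At 221523_s_at the RRAGD fall was 1.62 (standard error 0.19).

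Several of these calls lay near the limit of 1. Without replicate 1 of sh-scrambled cells without doxycycline, BCL6 203140_at stood at 0.93 and BCL2L11 1555372_at at 0.83. Without replicate 2 of that group, CCNG2 211559_s_at and BCL6 228758_at came to 1.0 and RRAGD 221524_s_at to −0.99, no longer past the limit, with adjusted p of at most 0.00017 in all 5 cases.

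**Figure D2:**
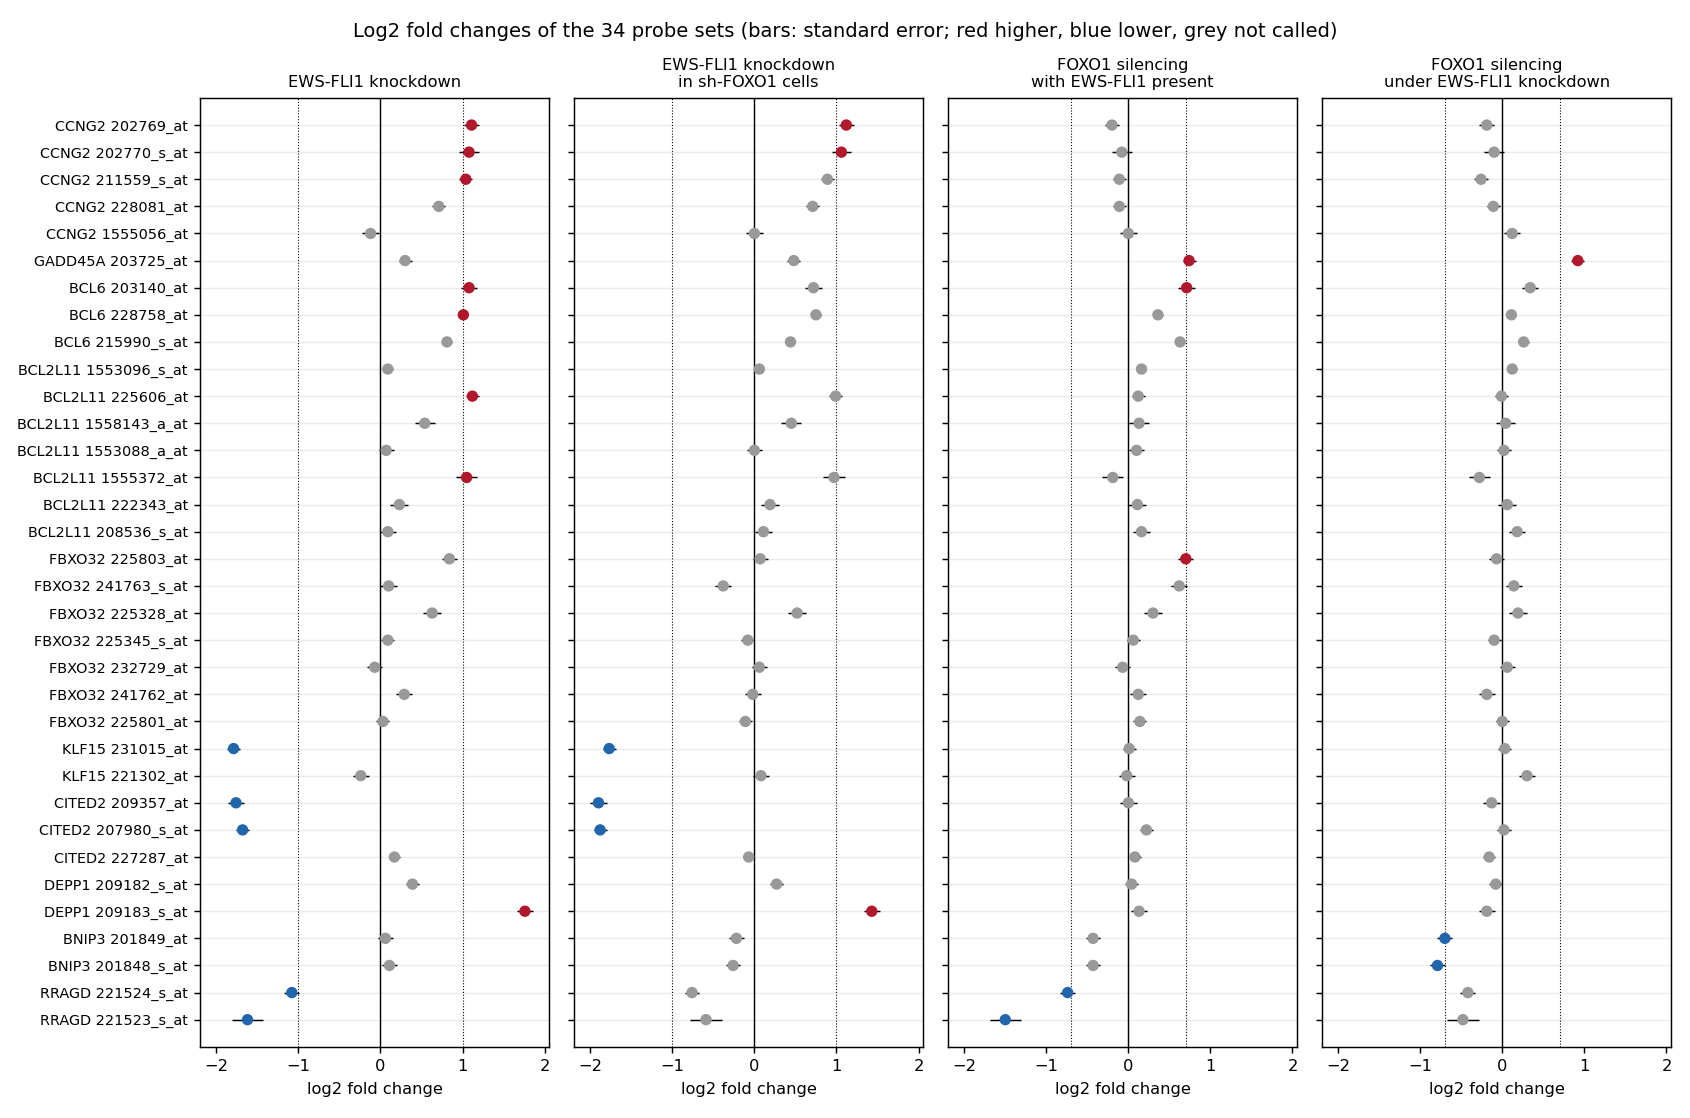
Log2 fold changes (x axis) of all 34 probe sets (y axis, grouped by gene) in 4 comparisons of the shRNA groups, 2 arrays against 2. Bars are standard errors, red and blue points are called higher and lower, grey points are not called and dotted lines are the fold change limits; KLF15 231015_at and CITED2 209357_at and 207980_s_at lie between −1.68 and −1.90 in both knockdown comparisons, while KLF15 221302_at and CITED2 227287_at lie between −0.24 and 0.17.

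Of the 13 probe sets called after knockdown in sh-scrambled cells, 6 were also called in sh-FOXO1 cells, in the same direction. There, 3 of 34 probe sets rose with doxycycline (CCNG2 202769_at and 202770_s_at, DEPP1 209183_s_at), where 3.17% of all probe sets did, and 3 fell (KLF15 231015_at, CITED2 209357_at and 207980_s_at), where 2.36% did. CCNG2 202769_at read 8.12 and 8.16 without and 9.19 and 9.33 with doxycycline in sh-FOXO1 cells, a difference of 1.12 beside 1.11 in sh-scrambled cells. KLF15 gave −1.77 beside −1.79 and CITED2 209357_at −1.90 beside −1.76. DEPP1 209183_s_at read 5.35 and 5.13 without and 6.69 and 6.66 with doxycycline, a difference of 1.43 beside 1.76. The 2 BCL2L11 probe sets that rose in sh-scrambled cells gave 0.99 (225606_at, adjusted p = 1.5e-05) and 0.97 (1555372_at), just short of the limit. The other 5 were nearer to 0 than in sh-scrambled cells. RRAGD gave −0.59 at 221523_s_at beside −1.62 and −0.76 at 221524_s_at beside −1.08, and BCL6 0.72 at 203140_at beside 1.08 and 0.75 at 228758_at beside 1.01. CCNG2 211559_s_at gave 0.89 beside 1.04. Calls of 1 side alone therefore do not show a difference between the 2 backgrounds, which was tested as an interaction. The CCNG2 call at 202770_s_at (1.06) was lost without replicate 2 of sh-FOXO1 cells without doxycycline (0.84).

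The interaction, the knockdown effect in sh-FOXO1 cells minus that in sh-scrambled cells, was called for 1 of 34 probe sets, and it was negative, where 0.982% of all probe sets were called negative and 0.541% positive. It was FBXO32 225803_at. FBXO32 read 5.73 and 5.79 in sh-FOXO1 cells without doxycycline and 5.72 and 5.94 with it. The knockdown difference was 0.07 (standard error 0.09) beside 0.84, and the interaction −0.77 (standard error 0.12, adjusted p = 0.013). The sh-FOXO1 arrays without doxycycline were already close to the treated arrays, and with doxycycline FBXO32 gave −0.07 for FOXO1 silencing (adjusted p = 0.70). The call held without either sh-scrambled array without doxycycline and without replicate 2 of sh-FOXO1 with doxycycline. It was lost on leaving out any of the other 5 shRNA arrays, with adjusted p of 0.043 to 0.067 and, without replicate 1 of sh-FOXO1 cells with doxycycline, a value of −0.66. The other FBXO32 probe sets gave interactions of −0.48 to 0.13, none called.

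RRAGD 221523_s_at had the largest positive interaction of the 34 probe sets, 1.02 (standard error 0.27, adjusted p = 0.099), which did not pass. RRAGD read 6.33 and 6.66 in sh-scrambled cells, 5.02 and 4.74 with doxycycline, 5.19 and 4.80 in sh-FOXO1 cells and 4.17 and 4.63 with doxycycline. At this probe set each perturbation alone brought RRAGD to about the same range, and both together to the lowest. The perturbed arrays lay low there, at percentiles 27.1 to 50.6, and the part of low signal in the interaction was not tested. At the leading RRAGD probe set 221524_s_at the interaction was 0.32 (standard error 0.13, limma adjusted p = 0.30). The interactions of the 3 BCL6 probe sets were −0.37, −0.26 and −0.37, with adjusted p of 0.26, 0.21 and 0.070.

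Under EWS-FLI1 knockdown, sh-FOXO1 cells had less BNIP3 and more GADD45A than sh-scrambled cells. Comparing sh-FOXO1 with sh-scrambled cells, both with doxycycline, 2 of 34 probe sets fell (both of BNIP3), where 1.04% of all probe sets did, and 1 rose (GADD45A), where 1.31% did. For this and the next comparison the limit was a log2 fold change of 0.7, or 1.62-fold. BNIP3 201848_s_at read 9.32 and 9.40 in sh-scrambled and 8.47 and 8.66 in sh-FOXO1 cells with doxycycline, and 201849_at 9.80 and 9.80 against 9.05 and 9.15. BNIP3 fell by 0.79 (standard error 0.09, limma adjusted p = 0.0010) and 0.70 (standard error 0.09, limma adjusted p = 0.0012). Without replicate 1 of sh-FOXO1 with doxycycline both BNIP3 values missed the limit, at −0.70 and −0.65. GADD45A read 10.40 and 10.51 in sh-scrambled and 11.33 and 11.43 in sh-FOXO1 cells, a rise of 0.92 (standard error 0.08, adjusted p = 0.00031).

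Genes that rose with EWS-FLI1 knockdown showed small differences in this comparison. CCNG2 202769_at gave −0.19 (standard error 0.09, adjusted p = 0.21), 211559_s_at −0.26 (adjusted p = 0.082), DEPP1 209183_s_at −0.19 (standard error 0.10, adjusted p = 0.27), BCL2L11 225606_at −0.01 (standard error 0.08) and BCL6 203140_at 0.34 (adjusted p = 0.061). None of the CCNG2, BCL6, BCL2L11 or DEPP1 probe sets was called, and all 3 BCL6 values were above 0. KLF15 231015_at gave 0.03 and the CITED2 probe sets −0.13, 0.02 and −0.16. A p that misses the threshold does not show that the levels were equal. FOXO1 itself averaged 5.75 in sh-FOXO1 cells with doxycycline and 5.83 in sh-scrambled cells without it (202723_s_at). The silenced cells were therefore not cells without FOXO1 RNA.

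With EWS-FLI1 present, sh-FOXO1 cells had more GADD45A and less RRAGD than sh-scrambled cells. BCL6 and FBXO32 were called higher at a single probe set each. Here 3 of 34 probe sets rose, where 1.36% of all probe sets did, and 2 fell, where 0.966% did. GADD45A read 10.83 and 10.97 in sh-FOXO1 against 10.10 and 10.21 in sh-scrambled cells (log2 fold change 0.74, standard error 0.08, adjusted p = 0.00084). BCL6 203140_at read 8.65 and 8.74 against 7.83 and 8.13 (0.71, standard error 0.10, limma adjusted p = 0.0024). FBXO32 225803_at read 5.73 and 5.79 against 5.02 and 5.10 (0.70, standard error 0.09, limma adjusted p = 0.0012). The other BCL6 probe sets gave 0.36 and 0.63 and the other FBXO32 probe sets −0.07 to 0.62, none called. GADD45A, BCL6 and FBXO32 are known as genes that FOXO factors activate. RRAGD fell by 0.74 at 221524_s_at (8.58 and 8.53 against 9.21 and 9.39, standard error 0.09, adjusted p = 0.0014) and by 1.50 at 221523_s_at (standard error 0.19, adjusted p = 0.0015). Both BNIP3 probe sets gave −0.43 (adjusted p = 0.013 and 0.017), short of the limit.

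The 3 rises lay close to the limit. Without replicate 1 of sh-scrambled cells without doxycycline, GADD45A stood at 0.69, BCL6 at 0.56 and FBXO32 at 0.66, and none of the 3 was called. Without replicate 2 of sh-FOXO1 cells without doxycycline all 3 came to 0.67, and RRAGD 221524_s_at was −0.65 without replicate 2 of sh-scrambled cells. RRAGD 221523_s_at kept its call in every alternative.

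**Figure D3:**
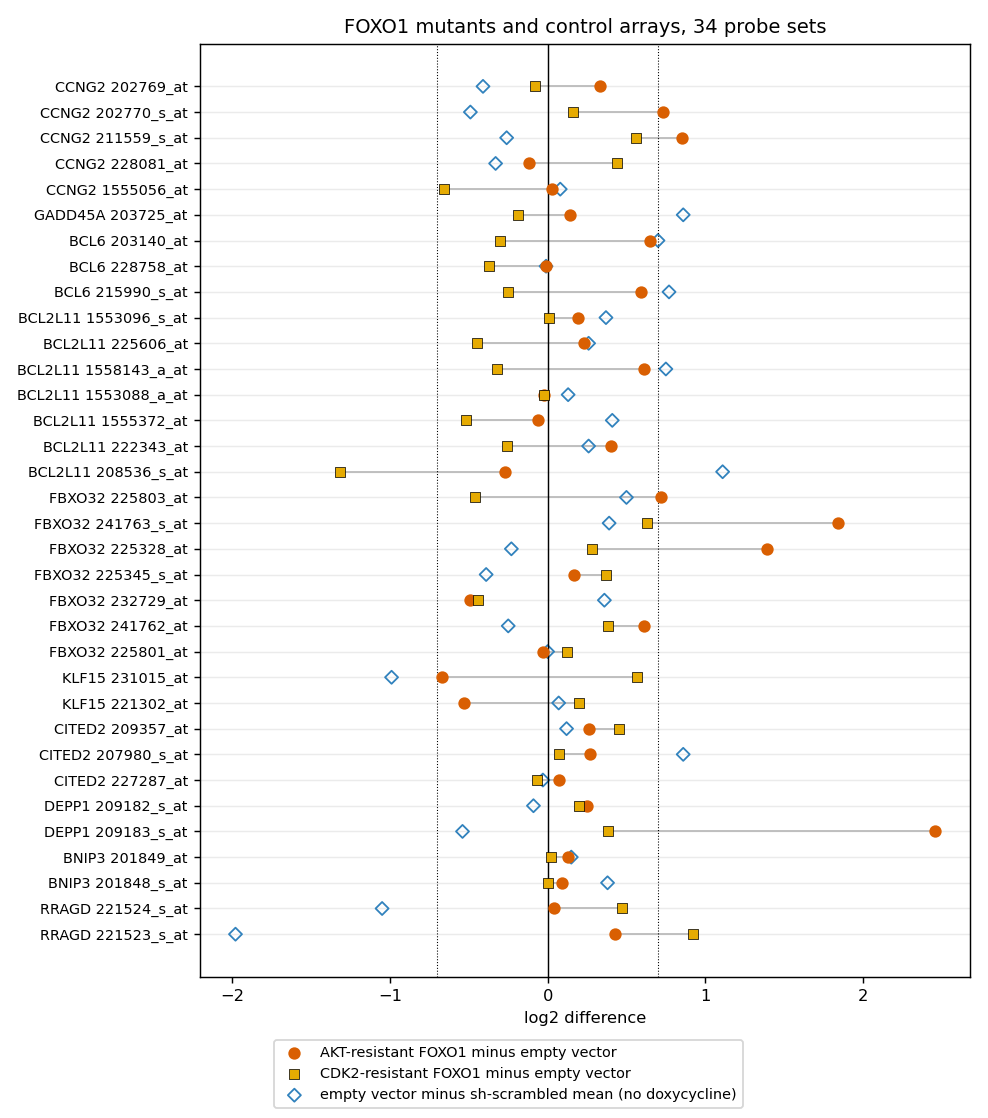
Log2 differences (x axis) of all 34 probe sets (y axis) between single arrays: AKT-resistant FOXO1 (circles) and CDK2-resistant FOXO1 (squares) minus empty vector, and empty vector minus the mean of the 2 sh-scrambled arrays without doxycycline (open diamonds). Dotted lines mark 0.7 in either direction; DEPP1 209183_s_at reaches 2.46 with AKT-resistant FOXO1, and RRAGD 221523_s_at lies 1.98 lower with empty vector than in sh-scrambled cells.

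The FOXO1 mutants have 1 array each, so their differences have no replicate check and no test. AKT-resistant FOXO1 exceeded empty vector by more than 0.7 in 6 of 34 probe sets, of DEPP1, FBXO32 and CCNG2, where 1.33% of all probe sets did, and was lower by as much in 0, where 1.15% were. The median over the 34 probe sets was 0.21, against 0.00 over all probe sets. DEPP1 209183_s_at read 4.57 with empty vector and 7.03 with AKT-resistant FOXO1, a difference of 2.46 or 5.50-fold. The leading DEPP1 probe set, 209182_s_at, differed by 0.25. Among the leading probe sets of the 10 genes, that of FBXO32 alone passed 0.7. DEPP1 is 1 of the genes whose promoter holds GTAAACA. BCL2L11, the other one, gave differences of −0.27 to 0.61 over its 7 probe sets. At 3 of its 7 probe sets FBXO32 was higher, from 4.87 to 6.70 at 241763_s_at, from 4.20 to 5.60 at 225328_at and from 5.56 to 6.28 at 225803_at. CCNG2 was higher by 0.85 at 211559_s_at and 0.73 at 202770_s_at but by 0.33 at its leading probe set. BCL6 203140_at and 215990_s_at were higher by 0.65 and 0.59, KLF15 231015_at was lower by 0.67, and GADD45A (0.14), BNIP3 (0.09 and 0.13) and RRAGD 221524_s_at (0.04) were close to empty vector.

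CDK2-resistant FOXO1 exceeded empty vector by more than 0.7 in 1 of 34 probe sets (RRAGD 221523_s_at, 0.92), where 1.16% of all probe sets did, and was lower by as much in 1 (BCL2L11 208536_s_at, −1.32, below the 60th percentile throughout), where 1.21% were. DEPP1 209183_s_at read 4.95 (difference 0.38), FBXO32 225803_at 5.10 (−0.46), BCL6 203140_at 8.39 (−0.30) and KLF15 231015_at 7.49 (0.57). Set directly against each other, AKT-resistant exceeded CDK2-resistant FOXO1 in 8 of 34 probe sets, where 2.87% of all probe sets did, and was lower in 2, both of KLF15, where 2.54% were. The 8 belong to DEPP1 (2.07), FBXO32 (1.21, 1.18 and 1.11), BCL6 (0.95 and 0.84) and BCL2L11 (1.04 and 0.93), and KLF15 was lower by 1.24 and 0.74. The leading DEPP1 probe set, 209182_s_at, differed by 0.05 between the mutants. The BCL2L11 value of 1.04 is that of 208536_s_at. It read 5.25 with empty vector, 4.98 with AKT-resistant and 3.93 with CDK2-resistant FOXO1. FOXO1 RNA itself was higher by 1.24 on the AKT-resistant array (202723_s_at), by 0.73 at 228484_s_at and by 0.10 at 202724_s_at, and the part of that in the other differences was not tested.

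The control arrays of the plasmid and shRNA experiments differed in the same genes. Empty vector and sh-scrambled cells without doxycycline both hold EWS-FLI1 and endogenous FOXO1, yet they differed by more than 0.7 in 8 of 34 probe sets (23.5%), where 6.34% of all probe sets did. GADD45A read 11.02 with empty vector against a mean of 10.16 in sh-scrambled cells, KLF15 231015_at 6.92 against 7.91, RRAGD 221523_s_at 4.51 against 6.50 and 221524_s_at 8.25 against 9.30, CITED2 207980_s_at 9.72 against 8.86 and BCL6 215990_s_at 6.14 against 5.38. BCL2L11 read 5.25 against 4.14 at 208536_s_at and 6.40 against 5.65 at 1558143_a_at. With the mean of all 3 control arrays as the reference, DEPP1 209183_s_at stayed 2.10 higher with AKT-resistant FOXO1, and DEPP1 209182_s_at gave 0.19. The 3 FBXO32 probe sets stayed 2.10, 1.24 and 1.05 higher. CCNG2 dropped to 0.67 and 0.40, GADD45A came to 0.71, BCL6 to 1.12 and 1.10 and KLF15 to −1.33, and RRAGD 221523_s_at with CDK2-resistant FOXO1 turned from 0.92 to −0.40. Plasmid type and transfection series cannot be told apart here.

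**Figure D4:**
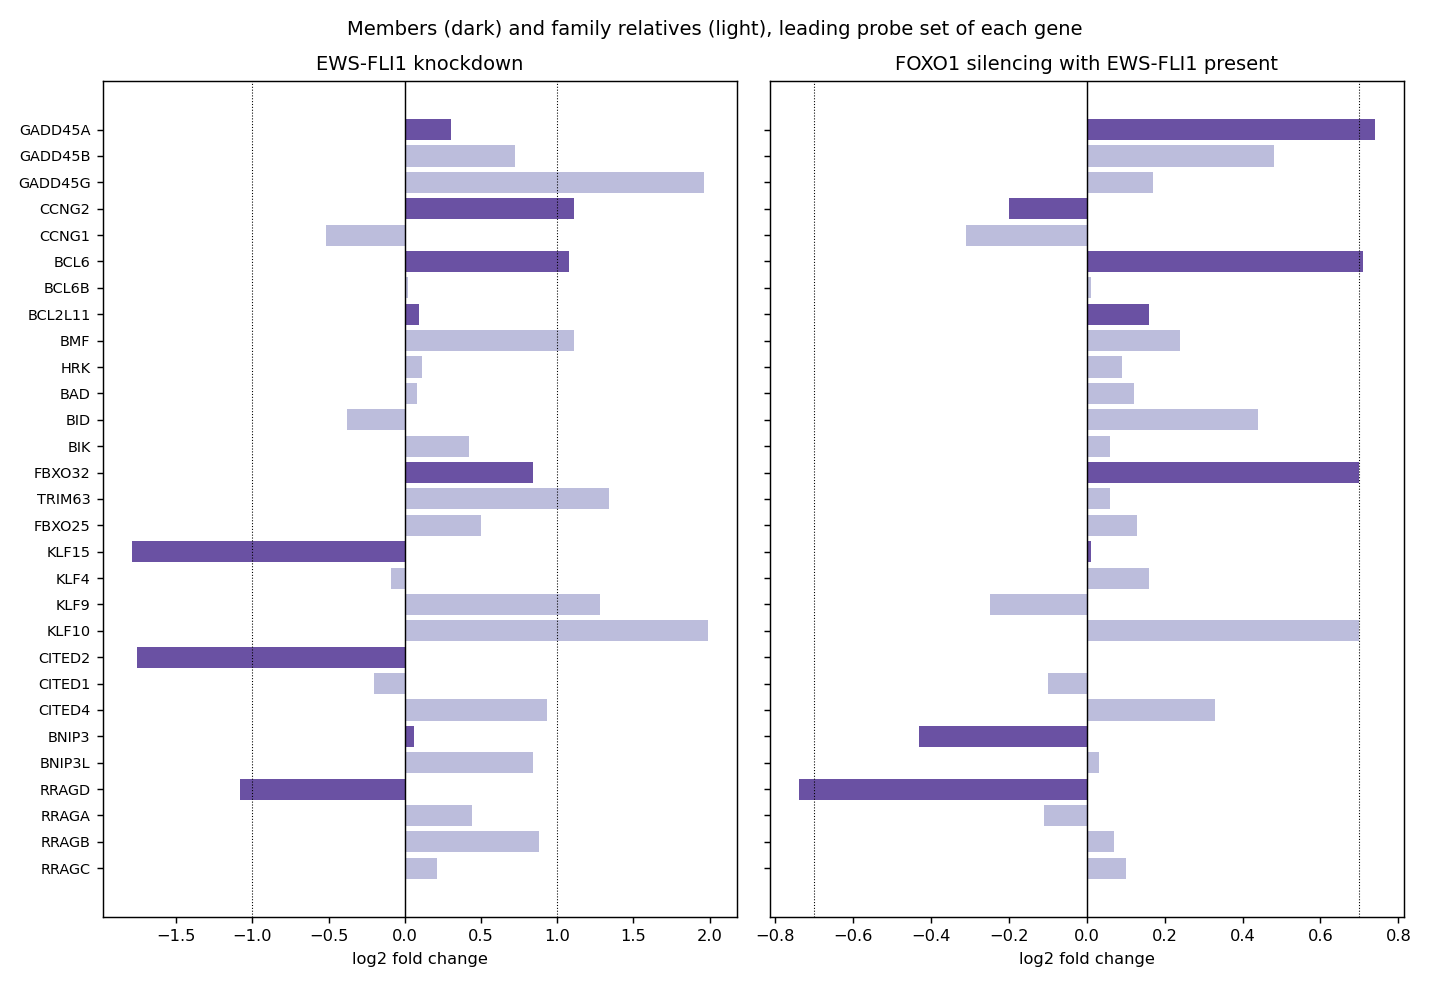
Log2 fold changes (x axis) of 9 of the genes (dark bars) and of their family relatives (light bars, y axis), each at its leading probe set, for EWS-FLI1 knockdown (left) and FOXO1 silencing with EWS-FLI1 present (right; the x axes differ). Dotted lines are the fold change limits of 1 and 0.7; GADD45G and KLF10 reach 1.96 and 1.99 on the left while GADD45A is at 0.30.

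Those family relatives of the genes that were called after EWS-FLI1 knockdown all rose, while some that were not called lay below 0. Of 20 relatives, each by its leading probe set, 5 rose and 0 fell, where 4.53% and 4.02% of 19775 genes did by theirs, with a median of 0.47 against −0.02 over all probe sets. GADD45G, a related stress sensor, rose by 1.96 (adjusted p = 4.6e-07) and GADD45B differed by 0.72, beside 0.30 for GADD45A. KLF10 and KLF9 rose by 1.99 and 1.28 while KLF15 fell by 1.79. TRIM63, the other muscle ubiquitin ligase that FOXO factors drive, rose by 1.34 and BMF, a BH3-only protein like BIM, by 1.11. The TRIM63 signal was low, at percentiles 10.1 to 54.7 of the arrays. BNIP3L gave 0.84 beside 0.06 for BNIP3, and RRAGA, RRAGB and RRAGC 0.44, 0.88 and 0.21 beside −1.08 for RRAGD. Going down short of the limit, CCNG1 gave −0.52 (limma adjusted p = 0.00056) beside 1.11 for CCNG2. BID gave −0.38 (limma adjusted p = 0.0047), CITED1 −0.20 and KLF4 −0.09. With FOXO1 silenced under the knockdown, 0 of the 20 were called in either direction (limma), where 1.55% of genes rose and 1.28% fell. With EWS-FLI1 present 1 rose (KLF10, 0.70), where 1.75% of genes rose and 0.961% fell.

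Other targets of FOXO factors were called in both directions. Of 19 measured genes of arrest and death that are not among the 10, 2 rose with EWS-FLI1 knockdown, DDIT4, an mTORC1 inhibitor (1.35), and BTG1, an antiproliferative protein (1.16). The 3 that fell were CCND2 (−2.35) and CCND1 (−1.31), cyclins that FOXO factors repress, and TXNIP (−1.72). Of all genes by their leading probe set, 4.53% rose and 4.02% fell. With FOXO1 silencing under the knockdown, SESN3, a sestrin, rose by 0.80 and INSR, the insulin receptor, by 0.75. Of the 19, 0 fell, where 1.55% of genes rose and 1.28% fell. Their interactions were called for SESN3 (1.05, adjusted p = 0.0072) and DDIT4 (−1.24, adjusted p = 0.00073), where 0.683% of genes were called positive and 1.39% negative. With AKT-resistant FOXO1, SESN3 was 1.60 and PMAIP1 0.73 higher than with empty vector, where 1.33% of all probe sets passed 0.7. With CDK2-resistant FOXO1, SESN3 was 1.61 and TXNIP 0.90 higher, where 1.16% did. SESN3 read 4.09 with empty vector and 5.69 with either mutant, but averaged 6.69 in sh-scrambled cells without doxycycline. Both mutants therefore lay above 1 control and below the other.

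The surrounding pathways gave these values, each gene by its leading probe set. Of all genes by theirs, 4.53% rose and 4.02% fell with EWS-FLI1 knockdown. With FOXO1 silencing 1.75% rose and 0.961% fell with EWS-FLI1 present, and 1.55% and 1.28% under knockdown. The interaction was called positive for 0.683% and negative for 1.39%. Of 15 FOXO factors and regulators, FOXO1 and SGK1, a kinase that phosphorylates FOXO proteins (1.15), rose with EWS-FLI1 knockdown and SKP2, a ubiquitin ligase subunit that targets FOXO1, fell by 2.23. FOXO3 differed by 0.74 (224891_at), short of the limit. Of 6 genes of the anti-death BCL2 family and the effectors of apoptosis, BCL2 (2.07) and BCL2A1 (1.22), both death antagonists, rose and 0 fell. The BCL2A1 signal was low, at percentiles 14.2 to 47.2 of the arrays. Of 11 genes of autophagy and mTORC1 control at the lysosome, SQSTM1 rose (1.13) with knockdown, and FLCN, which acts on RRAGC and RRAGD, rose with FOXO1 silencing by 1.30 with EWS-FLI1 present and 0.80 under knockdown. FNIP2, a partner of FLCN, fell by 0.93 with EWS-FLI1 present. Of 10 hypoxia response genes, which CITED2 and BNIP3 touch on, EPAS1 (4.45), ADM (3.59), NDRG1 (1.39) and P4HA1 (1.04) rose with knockdown. The interactions of ADM (−2.07) and EPAS1 (−1.87) were called, from unlike patterns. For FOXO1 silencing EPAS1 gave −1.76 under knockdown and 0.11 with EWS-FLI1 present, while ADM gave −0.63 and 1.43. The lists are described by these counts only.

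Over the 11 arrays some genes had near copies of their profile among 14211 genes compared. CITED2 209357_at was most like CCND2 (Pearson r = 0.995) and CCT7 (0.994), KLF15 like LARS1 (0.990) and PREX1 (0.988), CCNG2 like WWTR1 (0.988) and S100A13 (0.985), and BCL2L11 225606_at like SPP1 (0.990) and F2RL2 (0.985). BNIP3 201849_at was most like DCAF12 (0.986) and GMFB (0.977), RRAGD 221524_s_at like HLTF (0.980) and MSH6 (0.977), GADD45A like HSBP1 (0.980) and TMBIM6 (0.978), and BCL6 203140_at like MTMR10 (0.980) and DNAH7 (0.973). For DEPP1 209183_s_at the closest were ARHGAP24 (0.963) and S100A16 (0.957), and for FBXO32 225803_at CHMP1B and RAB5A (0.921 each), the lowest of these maxima. BCL2L11 and DEPP1 are given here at the probe set with the largest interquartile range. At their leading probe sets, BCL2L11 was most like DAD1 (0.987) and FHL2 (0.976), and DEPP1 like GPR143 and MVP (0.967 each). The arrays share groups, controls and the doxycycline effect, so these coefficients describe likeness and carry no test.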

How the data were processed

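RNA of A673sh cells was hybridised by the authors to Affymetrix HG-U133 Plus 2 arrays. The deposited values are log2 levels per probe set, summarised and normalized between arrays by the authors. The summarising method was not found in the methods or labels, and base 2 is taken from the range of 2.60 to 14.64. Array medians were 5.10 to 5.17, with upper quartiles of 7.09 to 7.12 on plasmid and 6.94 to 7.01 on shRNA arrays. Normalization between arrays removes any change shared by most probe sets. The number of arrays limits the precision.

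Symbols came from the platform annotation (41097 probe sets with 1 symbol, 1801 with several, 11777 with none), updated by gene identifier. A limma model of 7 groups (limma 3.58.1, R 4.3.3, empirical Bayes) was fitted to all 54675 probe sets, with Benjamini-Hochberg adjustment over all of them. The residual degrees of freedom are 4, since groups of 1 array add none, and the prior ones 4.54. Calls need a log2 fold change past 1 (knockdown) or 0.7 (otherwise) with an adjusted p under 0.05; single arrays were compared by log2 difference alone. The fit was tested on simulated data. Genes named are the 10, FOXO1, FOXO3 and FLI1, the 2 genes most alike to each, and of each list at most 4 called genes a direction, by size; single members given beside a relative were added after their values were seen. Members, lists and tests were chosen with earlier results of these data known. Alternatives were a replicate block, a filter at the 60th percentile, 1 probe set per gene, median centring, quantile normalization, a variance trend, adjusted p alone, leaving out each shRNA array and a 3-array control.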

Additional observations from a re-analysis of the deposited data

Results flagged for a closer look

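The effect of EWS-FLI1 knockdown on FBXO32 (225803_at) differed between the sh-FOXO1 and sh-scrambled backgrounds by the test of the difference itself: the interaction was −0.77 (standard error 0.12, adjusted p = 0.013, limma), from 0.07 in sh-FOXO1 and 0.84 in sh-scrambled cells. The call was lost on leaving out 5 of the 8 shRNA arrays, 1 at a time, with values of −0.89 to −0.66 over all 8. None of the other 6 FBXO32 probe sets was called (−0.48 to 0.13).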

How the results depend on the processing

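Of 88 gene values followed (70 tested, 18 from single arrays; differences smaller than their standard error were not followed), 977 of 1015 values under the alternatives kept their direction and their side of the limit or moved by less than the spread. Of the others 25 lost their call, 20 of these on leaving out 1 array, 2 gained one, 10 moved and 1 reversed, RRAGD 221523_s_at with CDK2-resistant FOXO1 at −0.40 against the 3-array control. With 1 probe set per gene, the counts were 4 higher and 3 lower for EWS-FLI1 knockdown, 1 lower for FOXO1 silencing under it and 1 lower for silencing with EWS-FLI1 present, 3 higher for AKT-resistant FOXO1, 0 lower for CDK2-resistant FOXO1 and 2 higher and 1 lower between the mutants, since fewer probe sets were tested. By adjusted p alone they were 15 higher for knockdown, 2 higher for silencing under it, 6 higher and 4 lower with EWS-FLI1 present, and 14 higher and 6 lower for knockdown in sh-FOXO1 cells. Median centring left 1 lower for silencing under knockdown (BNIP3 201849_at at −0.70) and 1 higher with EWS-FLI1 present (BCL6 0.70, FBXO32 0.69). The level filter gave 0 lower for CDK2-resistant FOXO1, and the 3-array control gave 2 lower for AKT-resistant and 0 lower for CDK2-resistant FOXO1. On leaving out 1 array, counts ranged from 0 to 2 lower for silencing under knockdown, from 0 to 3 higher and 1 to 2 lower with EWS-FLI1 present, and from 0 to 1 lower for the interaction. Same-numbered arrays deviated together (correlations of 0.419 to 0.623 over 6 pairs of groups), but with 2 numbers and nothing in the labels on what they mark they were not taken as paired. With the replicate number as a block, 1 interaction was called higher (RRAGD 221523_s_at, 1.02, adjusted p = 0.046), and the other counts stayed within 1.5 times. Depth does not apply to arrays. Among the 10 genes, low signal limits FBXO32 most, with 5 of 7 probe sets below the 60th percentile on every array.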

Other observations

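Values of the empty vector array were set beside the groups that differ by FOXO1 silencing with EWS-FLI1 present, a choice made after seeing the data. At all 5 member probe sets called there (GADD45A, BCL6 203140_at, FBXO32 225803_at and both of RRAGD), empty vector was closer to the sh-FOXO1 mean than to the sh-scrambled mean. Among all 1270 probe sets called in that comparison this was so for 607, or 47.8%, and among all 54675 probe sets for 49.7%. For RRAGD 221523_s_at the empty vector array read 4.51, the sh-FOXO1 mean was 4.99 and the sh-scrambled mean 6.50. For GADD45A they were 11.02, 10.90 and 10.16, and for BCL6 203140_at 8.68, 8.69 and 7.98. FOXO1 itself was at 5.84, 4.89 and 5.83 in the same order.

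Arrays of 1 group differed in the 34 probe sets by a median of 0.10 and at most 0.46, against 0.09 and 1.97 over all probe sets.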
